A study of Gallus gallus with 6 samples.

Results

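The 67 cytosolic ribosomal protein genes of this array are described here in chicken monoblasts carrying deltaP v-Myb, set against monoblasts carrying wild type v-Myb. A member was any gene whose single symbol in the platform annotation was RPL or RPS followed by a digit, RPLP or RPSA, leaving out the RPS6K kinases and RPS19BP genes. The 144 probe sets that met this rule stood for 67 of the 13051 genes with a single symbol, and where a gene had several probe sets, the one with the highest mean over the 6 arrays stood for it. By symbol, 43 of the 67 genes were counted with the large ribosomal subunit (RPL) and 24 with the small subunit (RPS). Paralogs such as RPL7L1 were counted by symbol too.

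Both groups were primary monoblasts (precursors of monocytes and macrophages) of Brown Leghorn chickens, transformed by v-Myb, a DNA-binding oncoprotein that an avian leukemia virus carries, and put into culture 16 days after infection. The deltaP group (3 biological replicates) carried a mutated v-Myb, and the wild type group (3 biological replicates) carried the unmutated one; the series title concerns the leucine zipper region, and neither the exact change in deltaP nor whether the replicates came from separate birds or infections is stated in the labels, so p-values measure only the spread between these samples. Total RNA was measured on 6 Affymetrix chicken arrays, 1 per replicate, as log2 values. In the deposited values each gene has the same mean in every same-numbered pair of arrays (within 0.001 log2 units), so the data hold 3 independent differences per gene, deltaP minus wild type within pairs 1, 2 and 3. A single array's value is therefore a position within its pair, not a measured level, and the arrays of the 2 groups do not overlap for a gene only where all 3 differences have the same sign.

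Ribosomal proteins assemble with ribosomal RNA in the nucleolus into a large subunit, which forms peptide bonds, and a small subunit, which reads the messenger RNA. Their messages are among the most abundant of growing cells. In vertebrates most of them start with a run of pyrimidines at the 5′ end, through which their translation responds to nutrient signalling by the mTORC1 kinase. Free ribosomal proteins, RPL5 and RPL11 above all, bind the p53 regulator MDM2 in mammals when ribosome assembly fails.

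The ribosomal protein messages were among the brightest on the arrays in both groups. A gene was tested when its log2 value was over 4 on at least 3 of the 6 arrays, and 66 of the 67 members and 7768 genes in all met this. The tested members had a median percentile of 99.5 by mean level among the 13051 genes, 61 members had a mean log2 value over 12, and 56 had one over 14. These 56 made up 41.2% of the 136 genes over 14. The brightest were RPS20, with a mean log2 value of 15.63, RPL26L1 with 15.56 and RPS23 with 15.52. The member left untested was RPL3L, which in mammals is a paralog of RPL3 of heart and skeletal muscle. Its values were 1.84, 1.81 and 1.88 on the deltaP arrays and 1.87, 1.90 and 1.83 on the wild type arrays, below the filter on every array.

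Across the family the differences between deltaP and wild type cells were small, and they came mostly from pair 3. Over the 66 tested members the median log2 difference, averaged over the pairs, was -0.11, which is 1.08-fold lower in deltaP cells. The median over all 7768 tested genes was 0.01. By pair, the members had medians of -0.08 (pair 1), 0.04 (pair 2) and -0.29 (pair 3), against 0.03, 0.02 and -0.04 over all tested genes. In bulk RNA of this kind, fewer cells of a type and less RNA per cell cannot be told apart.

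The direction of the members was far more uniform than that of the array as a whole in pairs 1 and 3. In pair 3, 61 of 66 members were lower in deltaP, where 54.2% of all tested genes were. In pair 1, 55 of 66 were lower, against 45.8% of all genes. Pair 2 went the other way, with 21 of 66 lower, against 46.1% of all genes. The average over the pairs was below 0 for 62 of 66 members and for 48.7% of all genes. Without pair 3, the average was below 0 for 41 of 66 members and their median was -0.02. Members share their arrays, so these counts describe 3 pairs and not 66 separate observations.

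No member passed the test. With same-numbered arrays treated as blocks in limma, 0 of 66 members had an adjusted p under 0.05, where the share among all tested genes was also 0%, and the smallest adjusted p of a member was 0.426. At an unadjusted p under 0.05 in limma there was 1 member lower in deltaP, RPL22L1, and 0 higher, where the shares of all tested genes were 6.04% lower, 3.89% higher and 9.93% in either direction. In limma without the block, 0 members passed in either direction, against 4.69% of all tested genes lower and 3.55% higher. That fit counts too many degrees of freedom for values centred within pairs, so many of its calls may be false. On simulated unchanged genes it gave an unadjusted p under 0.05 for 19.3%, against 5.7% with the block. Of the members 16 were lower in all 3 pairs and 1 was higher in all 3, that is, without overlap of the groups; the shares over all tested genes were 15.9% and 17.5%. With 3 pairs the smallest two-sided p of an exact sign test is 0.25. The 95% confidence interval of the log2 difference in limma lay inside -1 and 1, a 2-fold change either way, for 65 of the 66, and inside -0.5 and 0.5 for 53. The median half-width was 0.26, which is larger than the size of the family's median difference of -0.11.

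**Figure D1:**
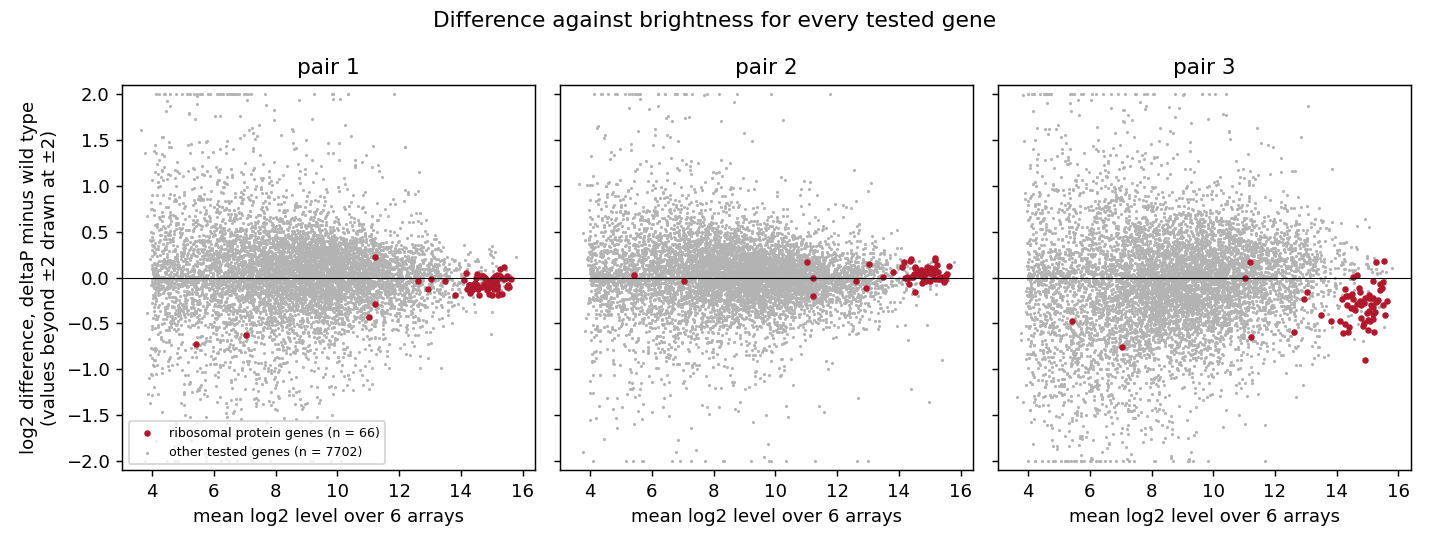
Each point is 1 tested gene, with its mean log2 level over the 6 arrays on the horizontal axis and its log2 difference, deltaP minus wild type, within pair 1, 2 or 3 on the vertical axis (values beyond 2 either way are drawn at the edge); red points are the 66 ribosomal protein genes and grey points the other genes. The red cluster at the bright end sits near 0 in pairs 1 and 2 and below it in pair 3, where the median of the members was -0.29.

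Other genes of the same brightness did not share the lower values of pair 3. Among the 80 tested genes outside the family with a mean log2 value over 14, the median pair 3 difference was 0.09 and 26 were lower in deltaP (32.5%). Among the 56 members over 14 the median was -0.28 and 52 were lower. The medians of the same members were -0.08 in pair 1 and 0.04 in pair 2, beside 0.01 in both pairs for the other bright genes. Between 12 and 14 there were 5 members, all lower in pair 3 with a median of -0.41, and 563 other genes with a median of 0.06. Centring each pair on the other genes over 12 subtracted 0.01, -0.01 and 0.06 in pairs 1, 2 and 3. This lowered every member's mean, and the family median went from -0.11 to -0.13. The count of 62 of 66 members below 0 could therefore not fall under it. Members and other bright genes went through the same quantile normalization, and members were 41.2% of the genes over 14. The 2 sets are thus not independent of each other.

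Pair 3 stood apart in other respects too. The poly-A RNAs spiked in before labelling (36 probe sets) had a median difference of 0.71 in that pair, against -0.10 in pair 1 and -0.07 in pair 2. The hybridization controls (27 probe sets) had medians of 0.04, -0.18 and 0.50 in pairs 1, 2 and 3. Actin probe sets at the 3′ end, the middle and the 5′ end of the transcript were higher in deltaP in every pair, by 0.26, 0.30 and 0.28 in pair 1, 0.12, 0.23 and 0.32 in pair 2, and 0.52, 0.83 and 0.74 in pair 3. The 4 GAPDH probe sets had differences of 0.02 to 0.13 in pair 1, -0.12 to -0.06 in pair 2 and 0.14 to 0.30 in pair 3. Of 12 markers of monoblasts and other leukocytes 11 passed the filter. Their mean levels ran from 3.84 (MARCO, untested) and 4.94 (CEBPA) to 14.17 (CEBPB), and SPI1 averaged 13.68 in deltaP and 13.56 in wild type cells. The summed level of the markers, as log2, was 15.94 to 15.99 on the deltaP arrays and 15.96 to 16.01 on the wild type arrays. Single markers went both ways. Of the 11 tested, 4 were higher and 2 lower in all 3 pairs, against 17.5% and 15.9% of all tested genes. In pair 3 LIPA differed by 1.17 and CSF1R by -0.77.

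Markers of other cell types also differed from pair to pair, and not in pair 3 alone. Of 10 erythroid markers 4 had a probe set and 3 passed the filter, with a summed log2 level of 8.21 to 9.12 on the deltaP arrays and 8.06 to 9.13 on the wild type arrays. The brightest of the 4 was ALAS1, which stood in for the listed ALAS2 and averaged 7.99 in deltaP and 7.79 in wild type cells. The count and the sum are therefore not of the listed erythroid genes alone. The globin gene HBAD had differences of 2.91, 0.29 and -2.65 in pairs 1, 2 and 3, and SLC4A1, the red cell anion exchanger, had averages of 2.47 in deltaP and 3.14 in wild type cells, below the filter. Of 9 lymphocyte markers 4 passed the filter, and CD4, CD8A, CD79B, PAX5 and LCK did not. The T cell genes CD28, CD3D and CD3E passed, with mean levels of 10.36, 10.31 and 6.19. So did SH2D6 (9.89), which stood in for the listed BLNK. CD3E had differences of 0.41, 2.52 and -2.19 in pairs 1, 2 and 3. The summed log2 level of the 9 was 11.55 to 12.15 in deltaP and 11.55 to 12.22 in wild type. The differences of that sum were -0.54, 0.60 and -0.67 in pairs 1, 2 and 3. Of 7 thrombocyte markers 4 had a probe set and 2 passed, F13A1 and TUBB1. The summed level was 10.76 to 11.61 in deltaP and 11.88 to 12.73 in wild type. F13A1, at 11.14 in deltaP and 12.24 in wild type, made up nearly all of that sum, and TUBB1 averaged 6.61 and 6.69. All 8 heterophil markers with a probe set passed the filter. Their summed level was 16.18 to 16.76 in deltaP and 16.84 to 17.46 in wild type. The differences of that sum were -0.35, -1.29 and -0.08 in pairs 1, 2 and 3. Of the 8, 3 were lower in deltaP in all 3 pairs and 1 was higher, against 15.9% and 17.5% of all tested genes. AvBD4 had differences of -2.87, -2.76 and -1.30, and LYZ had 0.71, 0.39 and 0.02. Of the fibroblast markers 2 of 9 passed, FN1 and COL3A1. The summed level was 9.43 to 10.07 in deltaP and 10.75 to 11.41 in wild type. FN1, at 9.58 in deltaP and 11.09 in wild type, made up nearly all of that sum, and COL3A1 averaged 4.23 and 4.18. Whether such cells, the spiked-in controls or the pair itself had a part in the values of the ribosomal protein genes was not tested.

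Within the large subunit, 40 of 42 tested members had a mean difference below 0, 10 were lower in all 3 pairs and 0 higher in all 3. Over all tested genes 48.7% had a mean below 0, 15.9% were lower in all 3 pairs and 17.5% higher in all 3. The subunit's medians were -0.08, 0.05 and -0.33 in pairs 1, 2 and 3. Its pair 3 differences ran from -0.90 to 0.17. In the small subunit 22 of 24 had a mean below 0, 6 were lower in all 3 pairs and 1 higher in all 3, beside the same 48.7%, 15.9% and 17.5% of all tested genes. The small subunit had medians of -0.08, 0.02 and -0.25 and a pair 3 range of -0.61 to 0.18. The heat map of pair differences shows these values gene by gene. Differences between the subunits were not tested.

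**Figure D2:**
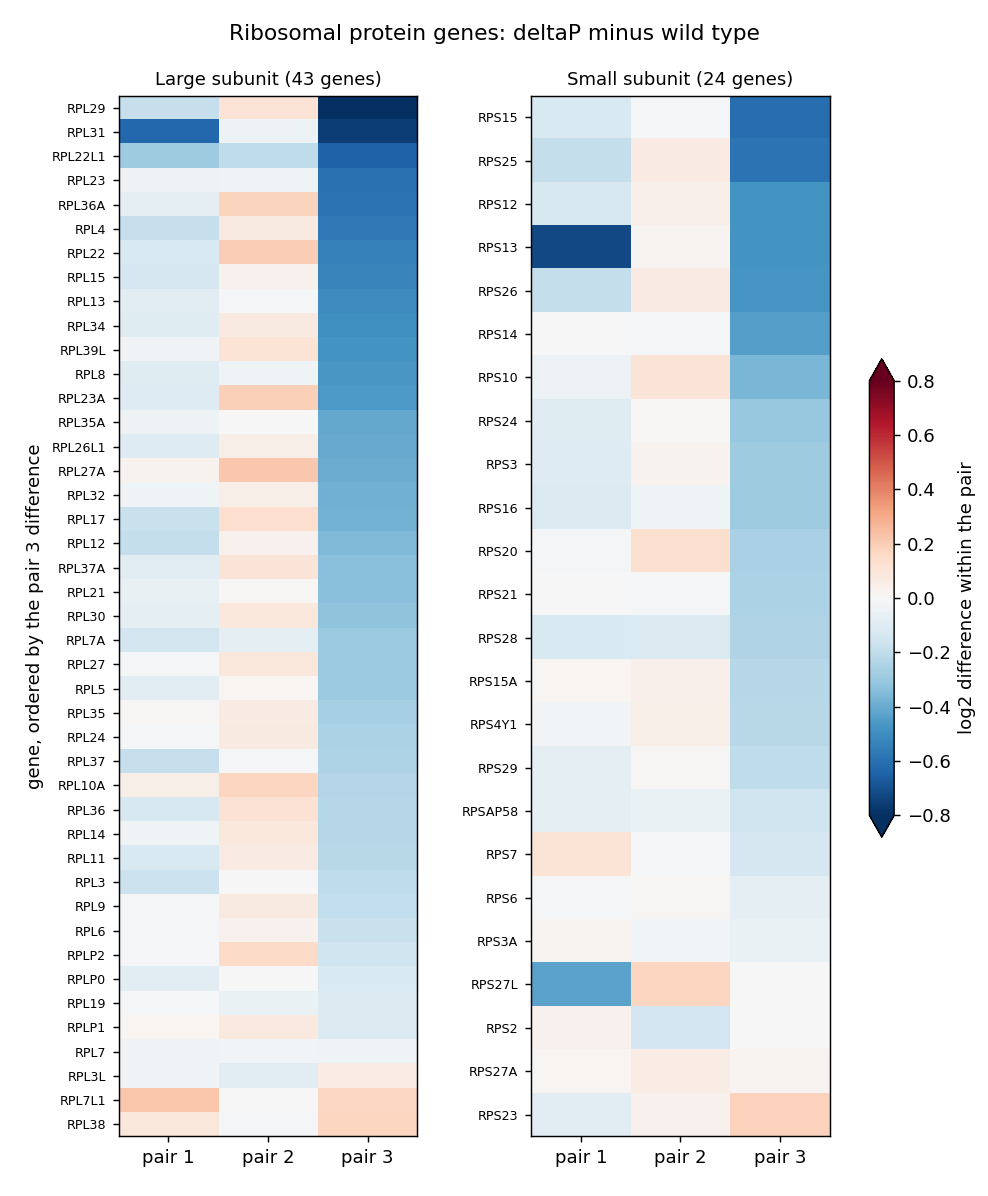
Colour gives the log2 difference, deltaP minus wild type, of each of the 67 members (rows) within pairs 1, 2 and 3 (columns), with large subunit genes on the left, small subunit genes on the right, and rows ordered by the pair 3 difference. Pair 3 is blue (lower in deltaP) for nearly every gene, while pair 2 is pale and mostly above 0.

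RPL22L1 had the smallest p of the family. It is a paralog of RPL22, a large subunit protein that in mice is needed for the development of T cells. RPL22L1 had log2 values of 11.07, 11.11 and 10.89 on the deltaP arrays and 11.35, 11.31 and 11.53 on the wild type arrays. All 3 deltaP arrays lay below all 3 wild type arrays. Its log2 difference was -0.38 ± 0.24 (SD, n = 3 pairs), with an adjusted p of 0.426 in limma (0.03 before adjustment). A dimmer RPL22L1 probe set, with a mean of 6.73, had differences of -0.25, 0.31 and 0.04, and the dimmest one, with a mean of 4.48, had 0.50, -0.32 and -0.21. With the median over its probe sets in place of the brightest, the RPL22L1 difference was 0.03, against -0.38.

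RPL22 itself had values of 14.33, 14.49 and 14.12 in deltaP and 14.45, 14.29 and 14.66 in wild type cells. The groups overlapped, with pair differences of -0.12, 0.20 and -0.54. The mean was -0.16 ± 0.37 (SD, n = 3 pairs; adjusted p = 0.777 in limma).

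The other members with the smallest p in the lower direction were RPL31, RPL7A, RPS15 and RPL8, with adjusted p in limma from 0.545 to 0.623. RPL31, a protein at the rim of the polypeptide exit tunnel, had the largest mean difference, -0.48 ± 0.38 (SD, n = 3 pairs). Its values were 6.72, 7.02 and 6.66 in deltaP and 7.35, 7.06 and 7.41 in wild type. The groups did not overlap, but pair 2 differed by -0.04 only, and the brightest RPL31 probe set had a mean level of 7.04, far below that of most members. A second RPL31 probe set (mean 6.30) had differences of -0.16, -0.16 and 0.19. RPL7A had values of 14.26, 14.30 and 14.19 in deltaP and 14.41, 14.37 and 14.48 in wild type, without overlap. Its mean difference was -0.17 ± 0.12 (SD, n = 3 pairs).

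RPS15, a protein of the head of the small subunit, had values of 14.14, 14.19 and 13.89 in deltaP and 14.26, 14.20 and 14.50 in wild type cells. The groups did not overlap, though pair 2 differed by -0.01 only, and the mean of -0.25 ± 0.32 (SD, n = 3 pairs) came mostly from the pair 3 difference of -0.61. RPL8, which lies near the peptidyl transferase centre, had differences of -0.09, -0.04 and -0.47. RPS13, the member next in size of mean difference, stood for a dim probe set (mean 5.43) with differences of -0.72, 0.02 and -0.48. A probe set that the annotation gives to RPS13 and a second gene was not used.

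The members with a mean above 0 were RPL7L1, RPL38, RPS23 and RPS27A. RPL7L1, a paralog of RPL7 whose yeast relative Rlp7 acts in the assembly of the large subunit, had values of 11.32, 11.20 and 11.29 in deltaP and 11.10, 11.21 and 11.12 in wild type cells. Its pair differences were 0.22, 0.00 and 0.17, with a mean of 0.13 ± 0.12 (SD, n = 3 pairs; adjusted p = 0.749 in limma). A second RPL7L1 probe set, at a mean of 4.56, had differences of 0.41, 1.12 and 0.63. RPL38, which in mouse embryos is required for translation of Hox messages, had values of 15.32, 15.27 and 15.36 in deltaP and 15.23, 15.28 and 15.19 in wild type. The groups overlapped, with pair differences of 0.09, -0.01 and 0.17.

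RPS23, a protein of the decoding centre, had pair differences of -0.08, 0.03 and 0.18, and so ran against the family in pair 3. RPS27A, which is made as a fusion with ubiquitin, was the 1 member higher in all 3 pairs, with differences of 0.01, 0.06 and 0.02. Its values were 14.67, 14.70 and 14.68 in deltaP and 14.66, 14.64 and 14.66 in wild type cells. That is a mean of 0.03 ± 0.03 (SD, n = 3 pairs), with a 95% confidence interval in limma of -0.18 to 0.25.

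**Figure D3:**
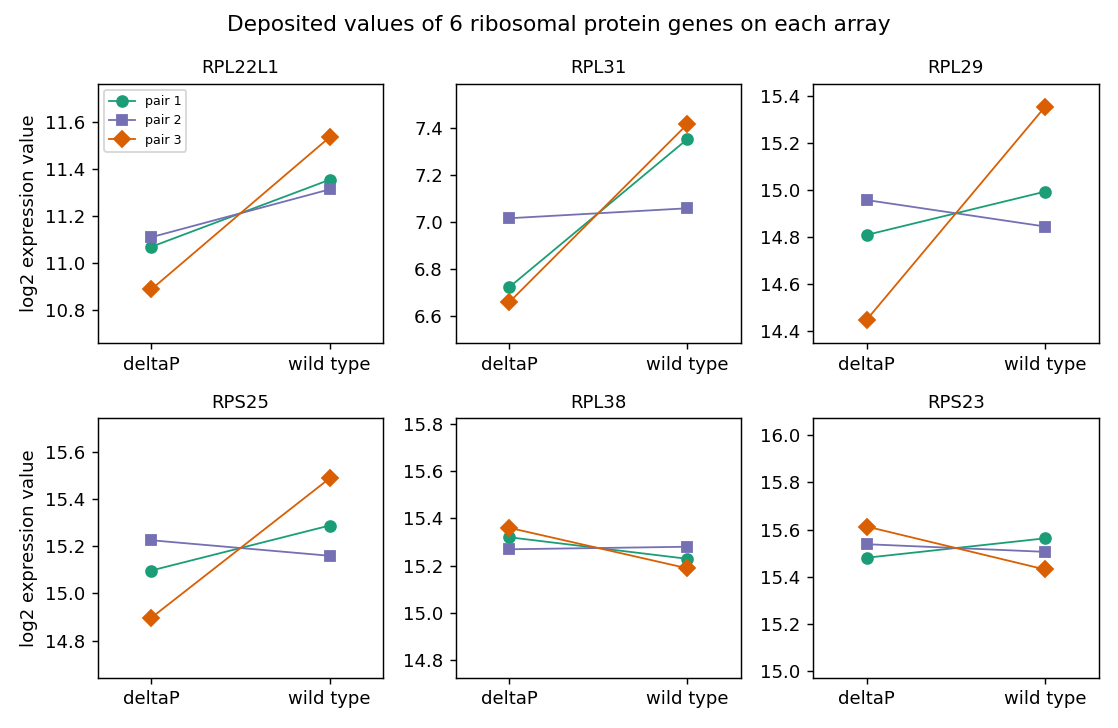
Deposited log2 expression values of RPL22L1, RPL31, RPL29, RPS25, RPL38 and RPS23 on the deltaP arrays (left) and wild type arrays (right), with a line joining the same-numbered arrays of a pair; every panel spans the same range of log2 units. Lines that climb to the right are lower in deltaP: in pair 3 this holds for the first 4 genes, by 0.90 for RPL29, and not for RPL38 and RPS23.

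In pair 3, 11 of 66 members were lower by more than 0.5 log2 units, against 2 in pair 1 and 0 in pair 2. The share of all tested genes beyond that distance is not given here, so the count is not a result about the members. The lower quartile in pair 3 was -0.46 for the members and -0.37 for all tested genes. The differences of all tested genes had SDs of 0.53, 0.43 and 0.59 in pairs 1, 2 and 3. The member farthest down was RPL29, singled out after its values were seen, which in mammals also occurs as a heparin-binding protein at the cell surface. It had values of 14.81, 14.96 and 14.45 in deltaP and 14.99, 14.84 and 15.35 in wild type cells, with pair differences of -0.18, 0.11 and -0.90. All 5 RPL29 probe sets were lower in pair 3, with differences of -0.90, -0.53, -1.05, -0.08 and -0.66 from the brightest to the dimmest. RPS25, a small subunit protein needed for internal initiation on some viral messages, had values of 15.10, 15.23 and 14.90 in deltaP and 15.29, 15.16 and 15.49 in wild type. Its groups overlapped, with a pair 3 difference of -0.59.

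Members of named parts of the ribosome had the following values. The 9 tested proteins of the exit tunnel and its rim, among them RPL4 and RPL17, had medians of -0.11, 0.07 and -0.46 in pairs 1, 2 and 3, and all 9 were lower in pair 3. So were 61 of the 66 members of the family and 54.2% of all tested genes. RPL4, which lines the tunnel, had differences of -0.18, 0.07 and -0.57. The stalk proteins RPLP0, RPLP1 and RPLP2, which bring elongation factors to the ribosome, were nearer to 0. RPLP0 had differences of -0.08, 0.00 and -0.12, RPLP1 of 0.01, 0.08 and -0.11, and RPLP2 of -0.02, 0.15 and -0.16. Among the 4 proteins at the entry and decoding region of the small subunit, 2 were lower and 2 higher in pair 3; RPS2 had differences of 0.04, -0.15 and 0.00. No difference between these parts was tested, and 0 members of any of them passed in limma (smallest adjusted p = 0.545, that of RPL31).

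The MDM2-binding members were of interest because the study concerns the INK4A locus, which in mammals also codes for ARF, another MDM2 inhibitor. RPL5 had values of 14.76, 14.81 and 14.66 in deltaP and 14.85, 14.79 and 14.95 in wild type cells, with a mean difference of -0.12 ± 0.16 (SD, n = 3 pairs; adjusted p = 0.735 in limma). RPL11 had values of 15.11, 15.20 and 15.06 in deltaP and 15.23, 15.14 and 15.28 in wild type, with a mean difference of -0.09 ± 0.14 (SD, n = 3 pairs; adjusted p = 0.789 in limma). Both genes had overlapping groups. All 9 tested members of this list had a mean below 0, with medians of -0.10, 0.02 and -0.29 over the pairs. In the whole family 62 of 66 members had a mean below 0, as did 48.7% of all tested genes. RPS27L, a target of p53 in human cells, had differences of -0.43, 0.17 and 0.00. In the same arrays CDKN2A differed by 3.88, 2.04 and 2.37, and MDM2 by -0.22, -0.01 and -0.61 (adjusted p = 0.593 in limma). Neither passed, as 0 of the 7768 tested genes had an adjusted p under 0.05 in limma. Which product of the chicken locus the CDKN2A values stand for was not examined.

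Of the genes mutated in Diamond-Blackfan anemia in human, a red cell aplasia, 13 were members. All 13 had a mean below 0, as did 62 of all 66 members and 48.7% of all tested genes. Their medians were -0.09, 0.04 and -0.30, beside -0.08, 0.04 and -0.29 for the whole family. RPL15 had the lowest pair 3 difference of the 13, -0.53, and RPS7 the highest, -0.13. RPS6, the small subunit protein phosphorylated by S6 kinase, had differences of -0.02, 0.01 and -0.07 at a mean level of 15.40. Its 95% confidence interval in limma was -0.24 to 0.19. RPL3, a core protein of the peptidyl transferase region, had differences of -0.17, 0.00 and -0.20 and did not overlap between the groups, although pair 2 differed by less than 0.01.

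Several chicken genes carry the symbol of a human paralog. RPSAP58, for which the RefSeq gene table (assembly GRCg7b) lists RPSA, the laminin receptor, as a synonym, had values of 14.71, 14.72 and 14.66 in deltaP and 14.78, 14.77 and 14.82 in wild type cells. The groups did not overlap, with a mean difference of -0.10 ± 0.06 (SD, n = 3 pairs; adjusted p = 0.759 in limma). RPL26L1, with RPL26 as its synonym, had differences of -0.11, 0.04 and -0.40. RPL39L, with RPL39, had -0.03, 0.11 and -0.48, and RPS4Y1, with RPS4X, had -0.02, 0.05 and -0.22. RPL7, the parent of RPL7L1, varied least of these, with -0.03, -0.02 and -0.03.

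The probe sets of a gene could be set against one another for 35 of the 67 members. Besides the brightest ones, 17 further probe sets of 13 genes had a mean over 12, and 15 of these were lower in pair 3, with medians of -0.05, 0.03 and -0.30 in pairs 1, 2 and 3. The 35 further probe sets between 4 and 12 had a pair 3 median of -0.15, with 21 lower and 14 higher and a range of -1.78 to 0.63. For 9 genes the probe sets over 4 had mean differences of both signs: RPL21, RPL22L1, RPL27A, RPL38, RPL9, RPLP1, RPS14, RPS25 and RPSAP58. RPS14, a gene lost in the human 5q deletion syndrome, had a brightest probe set (mean 14.79) with differences of 0.00, -0.01 and -0.44. A probe set at 8.09 had 0.67, 0.24 and 0.60, and another at 7.55 had -0.81, -0.13 and -1.78. RPL27A had 0.03, 0.22 and -0.40 at 15.19, and 1.10, 0.01 and -0.52 at 7.37. Probe sets that the array's naming marks as shared represented 28 members (suffix a, several transcripts of a gene) and 16 members (suffix s, several genes), so close relatives may add to these values.

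Across the 61 members with a mean over 12, the pair 1 and pair 3 differences were correlated (Pearson r = 0.54, Spearman rho = 0.54). Those of pairs 2 and 3 had r = -0.33 and rho = -0.30, and those of pairs 1 and 2 had r = -0.04 and rho = -0.05. The mean level and the pair 3 difference had r = 0.22 and rho = 0.22. These are correlations across genes that share their arrays and probe sets, and genes are not independent replicates. Over these members the differences had an SD of 0.07 in pairs 1 and 2 and of 0.20 in pair 3. Whether values this bright understate the differences was not tested.

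Genes that work with the ribosomal proteins were described by lists. RACK1, a scaffold protein of the small subunit whose symbol the rule does not cover, had differences of -0.08, 0.26 and -0.54. Of 16 tested translation factors and other genes whose messages start with a pyrimidine run in mammals, 14 were lower in pair 3 (54.2% of all genes), with medians of -0.05, 0.09 and -0.68 in pairs 1, 2 and 3. EIF3H, a subunit of initiation factor eIF3, had differences of -0.32, 0.08 and -0.95, and EIF2S3, the gamma subunit of initiation factor eIF2, had -0.27, 0.05 and -0.86. The elongation factor genes EEF1D and EEF2 had pair 3 differences of -0.69 and -0.50, while EEF1A1 had 0.04 at a mean level of 15.32 in deltaP and 15.30 in wild type cells. NAP1L1, a histone chaperone, was lower in all 3 pairs (-0.50, -0.26 and -0.40), and 0 of the 16 passed in limma (smallest adjusted p = 0.302, that of NAP1L1).

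Genes that build ribosomes did not follow the ribosomal proteins in pair 3. Of 30 tested chaperones and assembly factors 24 were higher in deltaP in that pair (45.8% of all tested genes), with medians of 0.02, 0.01 and 0.17. RSL24D1, an assembly factor of the large subunit related to RPL24, had differences of 0.18, 0.33 and 0.42, with an adjusted p of 0.440 in limma. RIOK1, a kinase of small subunit maturation, had 0.31, 0.30 and 0.22. LTV1, an export factor of the small subunit, had 0.36, 0.50 and 0.82. Of 13 genes of ribosomal RNA transcription and its processing 9 were higher in pair 3, beside the same 45.8%. Their medians were 0.09, 0.14 and 0.18. NOP56, a core protein of box C/D particles, had 0.26, 0.18 and 0.69, and TAF1D, a factor of RNA polymerase I, had 0.56, 0.39 and 0.16. No gene of these lists passed in limma.

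Among 21 tested genes of mTORC1 and S6 kinase signalling, 13 were higher and 8 lower in pair 3, beside 45.8% and 54.2% of all tested genes. Their medians were 0.05, 0.10 and 0.05. RPS6KA2, a kinase of the RSK family, had differences of 1.57, 0.83 and 0.44 (adjusted p = 0.327 in limma), and RHEB, the GTPase that activates mTORC1, had -0.24, -0.17 and -0.36. MYC, a driver of ribosome production, had -0.21, -0.01 and -0.83. The 15 genes of ribosome rescue and ribosomal stress had medians of -0.03, -0.01 and 0.06. DDRGK1, a part of the ligase that attaches UFM1 to the large subunit, had -0.42, -0.15 and -0.49, with an adjusted p of 0.437 in limma, and VCP, which extracts stalled chains, had 0.00, 0.27 and 0.79.

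Cell cycle and interferon response genes were higher in deltaP in pair 3. All 17 tested genes of S phase and mitosis were higher in deltaP in pair 3, against 45.8% of all tested genes. Their medians were 0.04, -0.28 and 0.65, and CCNE2, which encodes cyclin E2, had 0.46, 0.24 and 0.76. All 16 tested interferon response genes were higher in pair 3, against the same 45.8%, with medians of 0.17, -0.03 and 1.88. ADAR, an RNA-editing enzyme, had 0.43, 0.42 and 0.43, and GBP, a guanylate-binding GTPase, had 0.87, 0.32 and 0.88. None of these lists held a gene past the threshold in limma; the smallest adjusted p in them was 0.365, that of GBP. Whether the interferon or cell cycle state of the pair 3 cultures had a part in the lower ribosomal protein values was not tested.

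**Figure D4:**
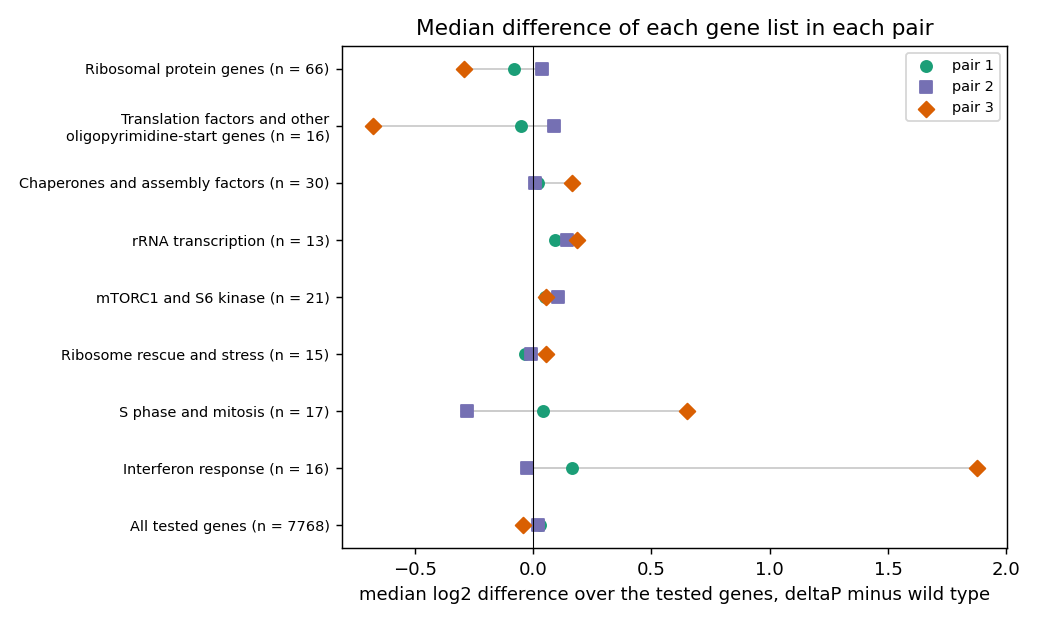
Median log2 difference, deltaP minus wild type, over the tested genes of each list (rows, with the number of genes) within pair 1 (circles), pair 2 (squares) and pair 3 (diamonds). In pair 3 the ribosomal protein genes (-0.29) and the oligopyrimidine-start genes (-0.68) lie left of 0, and the S phase (0.65) and interferon genes (1.88) lie right of it.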

How the data were processed

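The deposited table holds log2 expression values per probe set and array; per the submitters' processing notes Partek 6.4 and GCRMA were used by the authors. GCRMA corrects background by probe sequence and normalizes arrays by quantiles. The same-numbered arrays' sums differed by at most 0.00013 log2 units between pairs over 38535 probe sets, so the replicate number had been removed as an additive effect, a step not given in the sources used here, and within each pair the 2 arrays' departures from their groups correlated at -1. Differences were therefore fitted in limma 3.58.1 (R 4.3.3) with the replicate number as a block and an intensity trend, two-sided, with Benjamini-Hochberg adjustment over the 7768 tested genes. The fit was tested on 5 simulated tables with known changes. With the block it found 38.8% of 2-fold and 90.8% of 8-fold changes, with 5.2 false calls per table on average. Without the block it found 85.2% and 98.6%, with 365 false calls. In these simulated tables a 2-fold change was thus missed more often than found with the block. Their changed genes were drawn from all tested genes, whereas 0 genes passed with the block in the deposited table. The rates therefore need not hold for the members or for the deposited values. Symbols came from the platform annotation (2016): a single gene was named for 27168 probe sets, more than 1 gene for 177, and no gene for 11094. Genes named were, by rule, the members with the smallest p, the largest differences and the highest and lowest levels, the paralogs, the stalk, RPL5, RPL11, RPS6, RPSA and RPL3, members whose probe sets disagree, up to 4 genes of each other list by smallest p, and CDKN2A; others were chosen after their values were seen. The members and lists were chosen with earlier results of these data known. The number of arrays limits the precision. No sequences are shown.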

Additional observations from a re-analysis of the deposited data

How the results depend on the processing

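No member was called in limma under any of the 12 alternatives planned or the 1 chosen after seeing the data (members with a mean log2 value over 12 only). In all of these but the fit without the block, 0 genes of the whole table were called. A count of 0 members was then the only one possible. Without the replicate block the count was also 0, with a smallest adjusted p of 0.0555 in limma (RPL22L1). At an unadjusted p under 0.05 in limma there were 9 of 66 members without the block, in place of 1. The share of all tested genes with such a p in that fit is not given here. That fit gave such a p for 19.3% of simulated unchanged genes, so the 9 are not read as a result. At an adjusted p under 0.05, 640 genes of the whole table passed without the block and 0 with it. Leaving out 1 pair at a time gave 0 calls, family medians from -0.20 to -0.02, and 20 to 58 members with the same direction in the remaining pairs; 58 was reached without pair 2, where only pairs 1 and 3 had to match, against 17 with all pairs. The family median was -0.02 without pair 3, -0.20 without pair 2 and -0.13 without pair 1, and -0.11 over all. Under the other filters, probe set choices and centrings it lay between -0.13 and -0.11, and 13 to 23 members had 1 direction in all pairs. Shares of all tested genes with 1 direction are not given for these settings, so these counts describe the members only. Of the 30 named members tested, 9 turned sign without pair 3 (RPL22, RPL27A, RPL39L, RPL9, RPLP1, RPLP2, RPS20, RPS23 and RPS4Y1), and 6 of 17 did with probe sets without a suffix; none of these differences passed the threshold.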
